A study of Homo sapiens with 2 samples.

Results

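Fibroblast growth factors (FGFs) and their receptors were followed in ovarian carcinoma cells with reduced RUNX2. The group held 10 genes, the ligands FGF1, FGF2, FGF5, FGF7, FGF9 and FGF18 and the receptors FGFR1, FGFR2, FGFR3 and FGFR4, and its members were taken by name, as every array probe whose RefSeq accession belonged to one of these symbols. This gave 21 probes on 30 spots, out of 41000 probes and 17240 named gene symbols on the array. The measured cells were SKOV3, an established human ovarian adenocarcinoma line. The clone cl-sh3, in which RUNX2 was knocked down, was set against a mock-transfected control clone on 2-colour Agilent whole genome arrays. Hybridization 1 had cl-sh3 in Cy5 and the control in Cy3, and hybridization 2 had them the other way round. Both clones were made with lentiviral pLKO.1-puro and selected with puromycin, the vector coding for a RUNX2 shRNA in cl-sh3 and for a scramble sequence without a mammalian match in the control.

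FGFs are secreted proteins that bind receptor tyrosine kinases together with heparan sulfate on the cell surface. The bound receptor signals through the adaptor FRS2 to the RAS and ERK cascade and to PI3K, and the cascade induces its own inhibitors, such as the Sprouty proteins and DUSP6. Alternative splicing of FGFR1, FGFR2 and FGFR3 sets which ligands a receptor binds, and FGF7 acts on the form of FGFR2 made by epithelial cells. RUNX2 is a DNA-binding transcription factor known best as the regulator of bone-forming cells.

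Each group was 1 clone. Both hybridizations, which the paper calls duplicates, were on a single slide and were taken to be of the same pair of RNA extracts. They count as 1 replicate, so the clones cannot be tested against each other, no p-value is given, and what the knockdown did cannot be told apart from what separates these clones otherwise. The cl-sh3 clone had moreover been picked from several for its low RUNX2. It was also picked because its proliferation, migration and invasion were inhibited more than those of another knockdown clone. RNA came from whole cultures, so fewer cells carrying a transcript and less of it per cell cannot be told apart. Values are log2 ratios of cl-sh3 over control, hybridization 1 first, and levels are log2 normalised intensities of a single probe, which do not compare one gene with another. Over the 36060 probes that passed the detection filter with a ratio in both hybridizations, the median size of the difference between the hybridizations was 0.223 on the log2 scale and 95% of differences were below 0.628. The 17 family probes that passed differed between hybridizations by 0.007 to 0.476, all below that limit.

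RUNX2 itself was represented by 3 probes. The brightest of them gave -2.04 and -1.30, a 3.18-fold lower mean signal in cl-sh3. For this probe hybridization 1 minus hybridization 2 was -0.73, larger in size than the 0.628 given above. The other probe of the same transcript record gave 0.17 and -0.13, and the probe of a second record gave -0.29 and -0.17. All 6 epithelial marker genes and all 4 ovarian serous marker genes examined were well above background in each RNA on each array. So did all 4 leukocyte markers, and a flag for signal above background on this array is therefore no proof that a gene was expressed. The mean ratios of the epithelial markers ran from -0.66 for ERBB2 to 0.68 for KRT19, with 5 of the 6 above 0, and those of the leukocyte markers from -0.02 to 0.14. The part of any such difference between the clones in the FGF values was not tested.

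Sequence upstream of the 3 family genes with the largest differences is shown because RUNX2 acts by binding DNA, with FGF2 lower and FGF18 and FGFR2 higher in cl-sh3. The RUNX core motif was searched as TGTGGT and TGCGGT, and the GC box, the element bound by SP1, as GGGCGG, each on both strands and without overlap between the motifs. The windows are RefSeq sequence of build GRCh38.p14 printed 5′ to 3′ in the direction of the gene. Capitals mark GGGCGG on the reverse strand, CCGCCC, in FGF2 and FGF18, and TGTGGT in FGFR2.
FGF2, chr4:122826581-122826681, plus strand: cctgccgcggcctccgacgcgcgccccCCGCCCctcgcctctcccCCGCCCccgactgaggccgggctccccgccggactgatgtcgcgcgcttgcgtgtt
FGF18, chr5:171419397-171419646, plus strand: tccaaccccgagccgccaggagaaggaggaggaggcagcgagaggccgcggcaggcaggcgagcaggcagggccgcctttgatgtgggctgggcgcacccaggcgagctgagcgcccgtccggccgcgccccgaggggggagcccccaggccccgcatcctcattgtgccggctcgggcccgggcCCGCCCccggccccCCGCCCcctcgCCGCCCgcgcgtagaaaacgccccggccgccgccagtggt
FGFR2, chr10:121596646-121596895, minus strand: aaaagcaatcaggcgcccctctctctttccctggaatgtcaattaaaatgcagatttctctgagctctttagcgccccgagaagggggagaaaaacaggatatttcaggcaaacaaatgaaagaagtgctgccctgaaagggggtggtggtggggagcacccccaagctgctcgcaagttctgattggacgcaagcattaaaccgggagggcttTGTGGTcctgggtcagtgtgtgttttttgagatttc
The 101 bases printed for FGF2 ended at the base before the annotated gene. They held 2 GC boxes, which began 74 and 56 bases before the start, and no RUNX core. They are the first 101 bases of the FGF2 window in the table, whose own start lies inside the annotated gene. Over the first 101 bases of all windows, which lie farther from the start than the FGF2 bases do from the annotated gene, 17.5% held a GC box and 6.91% a RUNX core. The 250 bases before the start of FGF18 held 3 GC boxes, which began 65, 51 and 40 bases upstream, and again no RUNX core. FGFR2 had 5 windows, and the one printed, before an alternative start, was chosen because it held a RUNX core, which began 36 bases upstream. The other 4 FGFR2 windows held no RUNX core, and the window of the outermost start held 3 GC boxes. Among 35116 windows of 250 bases, 16.3% held a RUNX core and 42.6% a GC box. Of the 17 windows found for 8 family genes, 2 held a RUNX core, in FGF1 and FGFR2, and 9 held a GC box. A match describes letters only, and its absence says only that these letters were not in the window.

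FGF2, the basic fibroblast growth factor that acts on endothelial and tumour cells and leaves the cell without a signal peptide, had the lowest ratio of the family. Its probe (NM_002006, probe A_23_P218918) was printed on 10 spots. The control level was 12.56 and 12.48, and the cl-sh3 level 11.40 and 11.40. The control was higher in each hybridization and the levels did not overlap. A lack of overlap is not particular to large differences here. It also held for the brighter FGFR3 probe, with ratios of 0.11 and 0.43, and its share over all probes was not counted. The ratios were -1.16 and -1.09, a mean of -1.12 or a 2.18-fold lower signal in cl-sh3. Of the 36060 probes, 0.452% had a lower mean ratio.

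The replicate spots show the measuring error of this probe within an array. In hybridization 1, 9 spots without an outlier flag ran from -1.29 to -0.92, with a median of -1.20 and an SD of 0.130. In hybridization 2, all 10 spots lay between -1.31 and -0.98, with a median of -1.05 and an SD of 0.119. Every spot was therefore below 0 on both arrays, and 7 of 9 and 7 of 10 passed the 2-fold line. Control spots lay at 12.29 to 12.68 and 12.16 to 12.74, and cl-sh3 spots at 11.29 to 11.48 and 11.15 to 11.74. The lowest control spot was above the highest cl-sh3 spot in each hybridization. Spots of 1 array share their RNA, so this spread covers printing and scanning and not the spread between cultures.

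**Figure D1:**
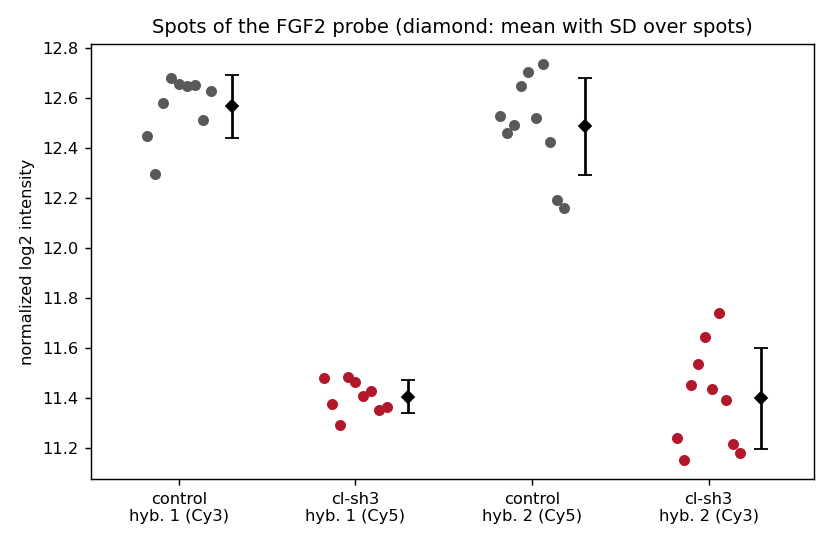
Log2 normalised intensity of each spot of the FGF2 probe for the control and cl-sh3 RNA in both hybridizations, with 1 point per spot and a diamond at the mean with the SD over spots. Control spots lie at 12.29 to 12.68 and 12.16 to 12.74, above all cl-sh3 spots of the same array at 11.29 to 11.48 and 11.15 to 11.74.

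FGF2 shares its locus with NUDT6, an antisense gene of the Nudix hydrolase family whose transcript overlaps the end of FGF2. The NUDT6 probe gave -0.16 and 0.43, which differed in sign between the hybridizations. The 3 named genes with ratios closest to FGF2 in distance over both hybridizations were POLI, a translesion DNA polymerase, with -1.18 and -1.10, MRFAP1, which encodes a nuclear protein binding MORF4L1, with -1.15 and -1.06, and ACAT1, the mitochondrial acetoacetyl-CoA thiolase, with -1.20 and -1.07. Their distances from FGF2 were 0.0172, 0.0244 and 0.0388 on the log2 scale.

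FGF18, a ligand with roles in cartilage, bone and lung development, went the other way with both of its probes (NM_003862). For the brighter probe the control level was 13.18 and 13.19 and the cl-sh3 level 13.88 and 14.04. The ratios were 0.70 and 0.85, a 1.71-fold higher mean. For the dimmer probe the control level was 9.65 and 9.50 and the cl-sh3 level 10.39 and 10.53. Its ratios were 0.74 and 1.02, a 1.84-fold higher mean. Levels of the clones did not overlap for either probe, which was also so for several family probes with smaller ratios. Only 354 and 205 of the 36060 probes, counted from the top and including the probe itself, reached these means. The dimmer probe passed the 2-fold line in hybridization 2 alone, so FGF18 was not 2-fold changed in both.

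FGF5, known as the factor that ends the growth phase of hair, had 3 probes (NM_004464). The brightest had a control level of 7.59 and 7.70 and a cl-sh3 level of 8.11 and 8.23. Its ratios of 0.52 and 0.53 were the closest pair in the family, a 1.44-fold higher mean. The size of this difference moved with the background correction, from 0.38 without correction to 0.67 with offset 0, and the software's own ratio gave 0.89. The other FGF5 probes were not well above background in either RNA of either hybridization. They gave -0.09 and 0.50, and 0.05 and -0.31, with no shared direction.

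FGF1, the acidic fibroblast growth factor that binds all of the FGF receptors, had 3 probes (NM_000800), each well above background in both RNAs. The brightest gave 0.22 and 0.49, a 1.28-fold higher mean, with control levels of 9.20 and 9.05 and cl-sh3 levels of 9.43 and 9.54. The next gave 0.05 and -0.013, and the dimmest 0.09 and 0.35. So 2 of the probes were higher in cl-sh3 in both hybridizations and 1 was level, and all these ratios were smaller than the 0.628 given above for the difference between hybridizations.

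FGF7, the keratinocyte growth factor made mostly by stromal cells, had 4 probes (NM_002009). The brightest gave 0.08 and -0.25, and the next gave 0.12 and -0.25. The level of the second moved more between the arrays than between the clones, from 8.35 to 9.82 in the control and from 8.47 to 9.58 in cl-sh3. The third probe gave 0.02 and 0.14 and was well above background in hybridization 1 alone. The fourth gave 0.11 and 0.01 and passed the filter through cl-sh3 only. No FGF7 probe reached a size of 0.223, the median gap between the hybridizations, in both of them. The RefSeq table lists 8 genes named as copies of FGF7, and near-identical transcripts may share its signal. FGF9, a ligand of gonad and lung development, gave 0.15 and -0.10 (NM_002010). It was well above background only in the RNA that carried Cy3, the control in hybridization 1 and cl-sh3 in hybridization 2, and was left out of the counts.

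**Figure D2:**
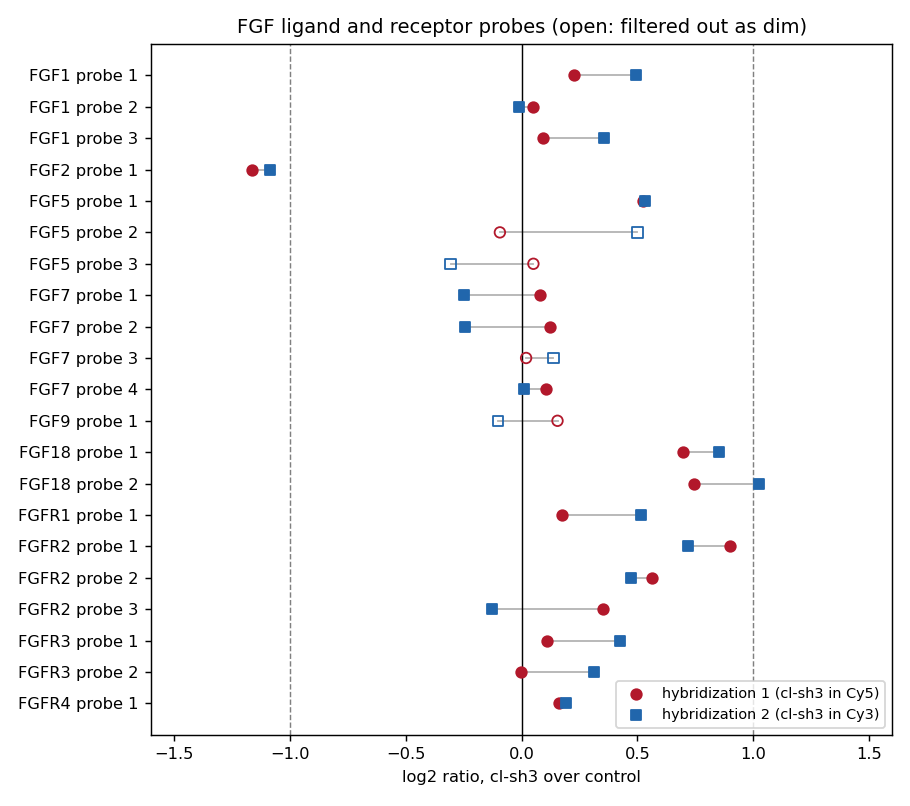
Log2 ratio of cl-sh3 over control for each of the 21 FGF and FGFR probes, with hybridization 1 as circles and 2 as squares, open where the probe did not pass the filter, a line at 0 and broken lines at 2-fold. The FGF2 probe lies at -1.16 and -1.09, both FGF18 probes and 2 of 3 FGFR2 probes lie above 0 on each array, and the FGF7 and FGF9 points fall around 0.

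FGFR2, the receptor whose epithelial splice form binds FGF7 and FGF10, had the highest ratio among the receptors. Its brightest probe (NM_022970, the epithelial IIIb record) had a control level of 10.12 and 10.27 and a cl-sh3 level of 11.02 and 10.99. The ratios of 0.90 and 0.72 gave a 1.75-fold higher mean, at rank 299 of 36060 from the top. The second probe of this record had a control level of 7.64 and 7.63 and a cl-sh3 level of 8.20 and 8.11. It was likewise higher in cl-sh3 on both arrays, with 0.56 and 0.47 or a 1.43-fold higher mean, and the settings tried moved it between 0.34 and 0.72. The third probe belonged to the record of the mesenchymal IIIc form (NM_000141). It was not well above background in the control in either hybridization, with levels of 6.84 and 7.14 against 7.19 and 7.01 in cl-sh3. Its ratios of 0.35 and -0.13 differed in sign. No fold is given, because its mean level in cl-sh3, 7.10, did not exceed 7.11, the mean floor of the control RNA, which is the higher of the probe's own control signal and the lowest control signal counted as above background on each array. The place of each probe in the transcript was not known here, so the probes cannot be assigned to splice forms.

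FGFR1, the receptor found most widely in mesenchymal and carcinoma cells, had 1 probe (NM_023110), with a control level of 11.40 and 11.45 and a cl-sh3 level of 11.58 and 11.97. Its ratios were 0.18 and 0.51, a 1.27-fold higher mean. FGFR3, a receptor that restrains growth plate cartilage, had 2 probes (NM_000142). The brighter gave 0.11 and 0.43, a 1.20-fold higher mean, from control levels of 11.22 and 11.17 and cl-sh3 levels of 11.33 and 11.60. The dimmer gave -0.0046 and 0.31 and passed the filter through cl-sh3 only. FGFR4, the receptor for FGF19 in liver, gave 0.16 and 0.19 (NM_213647), a 1.13-fold higher mean. No receptor probe was below 0 in both hybridizations, but outside FGFR2 every mean was at most 0.34, and 0.34 was also the largest gap between their hybridizations.

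**Figure D3:**
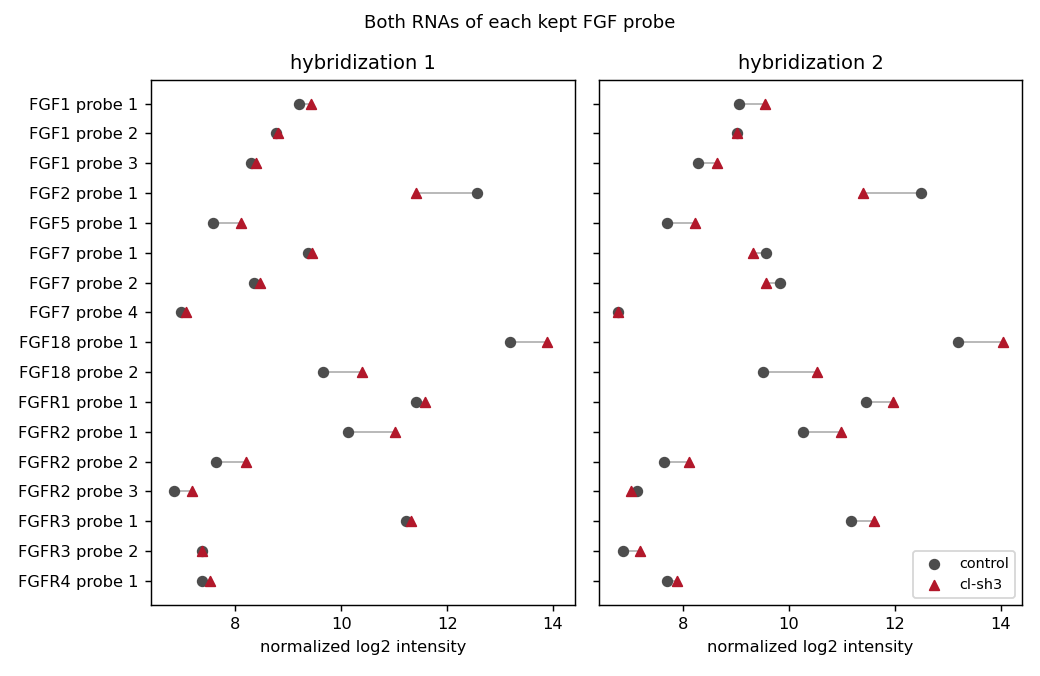
Log2 normalised intensity of each of the 17 FGF and FGFR probes that passed the filter in the control and in cl-sh3, for both hybridizations, to be read within a row because probes differ in brightness. FGF2 shows the control above cl-sh3 (12.56 and 12.48 against 11.40 and 11.40), and FGF18 and the brightest FGFR2 probe show cl-sh3 above the control.

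Counted over probes, 17 of the 21 passed the filter, from 9 genes, 14 with each RNA well above background on each array and 3 through cl-sh3 only. Of these 17, 1 was at least 2-fold lower in both hybridizations, the FGF2 probe, where 0.394% of all 36060 probes were. None was at least 2-fold higher in both, where 0.122% of all probes were. At a log2 size of 0.5 in both hybridizations, 1 probe was lower, against 3.24% of all probes, and 4 were higher, against 1.99% of all probes. The 4 were both FGF18 probes and the brightest probes of FGF5 and FGFR2. The remaining comparison was of sign alone, with 1 probe below 0 in both hybridizations against 27.3% of all probes and 11 above 0 in both against 29.8%. Among all 21 probes without the filter, these counts were 1, 0, 1, 4, 1 and 12. Among the 14 with each RNA well above background on each array, they were 1, 0, 1, 4, 1 and 10. Of the 3 probes that passed through cl-sh3 only, 1 was above 0 in both hybridizations and is among the 11. The median ratio was 0.22 over the 17 probes, with those 3 included, and 0.012 over all 36060. Several probes measure 1 gene, so the counts over probes are not counts of independent genes, and with 1 clone a side they describe these RNAs alone. With median centring in place of loess, the whole array held 77 probes at least 2-fold higher and 124 lower, where loess gave 44 and 142.

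**Figure D4:**
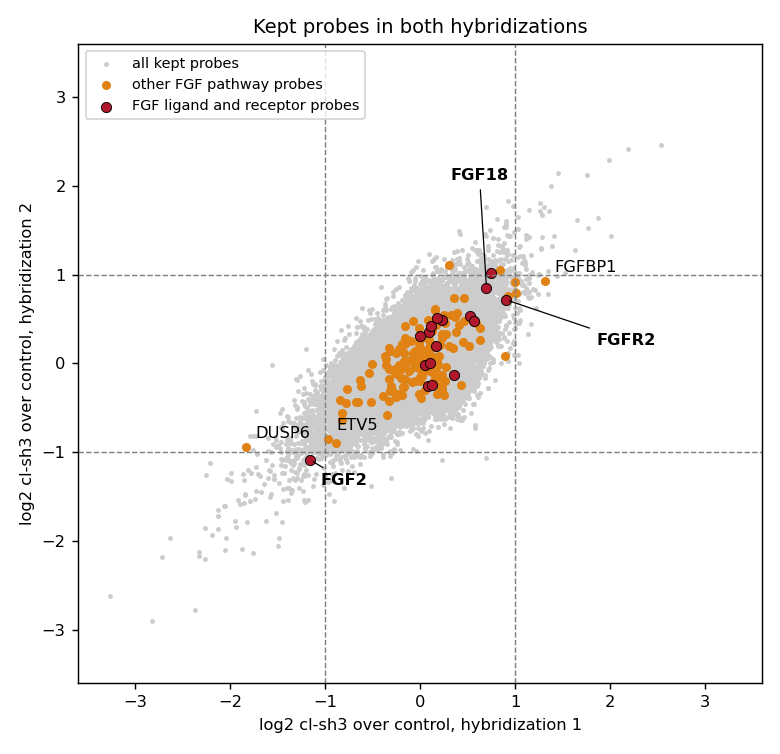
Log2 ratio of cl-sh3 over control in hybridization 2 against hybridization 1 for the 36060 probes that passed the filter, with the FGF and FGFR probes and the other FGF pathway probes in colour and broken lines at 2-fold. FGF2 is the family probe past 2-fold lower on both axes, and FGF18 and FGFR2 lie among the higher probes.

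The rest of the FGF pathway was read from 10 lists of 124 further genes, of which 123 had a probe, 180 probes in all, and 169 probes of 118 genes passed the filter. No probe was at least 2-fold changed in both hybridizations in either direction. At a log2 size of 0.5, 5 probes were lower and 5 higher, 2.96% each way, near the 3.24% and 1.99% of all probes. The median over the 169 probes was 0.0091, and 53 were below and 53 above 0 in both hybridizations. That is 31.4% each way, where 27.3% of all probes were below and 29.8% above 0 in both. Gene counts given below for single lists are to be read beside these shares of all probes. The 10 lists together thus showed about the shares of the whole array, and the single genes below are given as values only.

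Of the other FGF ligands, 9 of 12 genes passed the filter, with a median of 0.077 over each gene's brightest probe. FGF17, a ligand of midbrain patterning, gave 0.51 and 0.20. By the brightest probes none of the 9 was below 0 in both hybridizations. FGF19 gave 0.020 and -0.14 with its brighter probe, but -0.00046 and -0.064 with the other. The homologous factors FGF11 to FGF14 stay inside the cell and act on sodium channels. FGF12 gave 0.46 and 0.73 with its brighter probe and 0.27 and -0.039 with the other. FGF13 gave -0.26 and -0.38 with its brighter probe and 0.0048 and -0.39 with the other. By the brightest probes the list held 1 gene above and 2 below 0 in both hybridizations. Among 8 receptor partners, L1CAM, an adhesion molecule that can bind FGFR1, gave 0.58 and 0.46 with its brighter probe and 0.43 and -0.24 with the other. FLRT3, a membrane protein that promotes FGF signalling, gave -0.84 and -0.41, and 3 of the 8 genes were above 0 and 3 below 0 on both arrays.

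FGFBP1, a secreted carrier that releases FGF2 from the matrix, was the only gene of the carrier list at least 0.5 higher in both hybridizations. Its control level was 10.69 and 10.90 and its cl-sh3 level 12.00 and 11.83. The ratios were 1.31 and 0.93, a 2.17-fold higher mean, so that FGF2 and its carrier went in opposite directions in these RNAs. FGFBP3, another binding protein of the same family, gave -0.78 and -0.45 with its brighter probe and -0.30 and -0.30 with the other. S100A13, a calcium-binding protein that takes part in the export of FGF1, gave 0.62 and 0.40. Over the 11 carrier genes the median was -0.031, with 5 below and 3 above 0 in both hybridizations.

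The heparan sulfate proteoglycans, which present FGFs to their receptors, had a median of 0.098 over 12 core proteins, with 6 above and 3 below 0 in both hybridizations. The glypican GPC1 gave 0.38 and 0.56, agrin (AGRN) gave 0.46 and 0.48 and the syndecan SDC2 gave 0.32 and 0.54. None of the 12 was at least 0.5 changed in both. Of the 21 enzymes that build, sulfate or cut heparan sulfate, 2 were at least 0.5 higher and 1 was lower by that size. HS3ST1, a 3-O-sulfotransferase, gave 0.92 and 0.76. HS2ST1, the 2-O-sulfotransferase, gave 0.99 and 0.92 with its brightest probe, but its other 3 probes had means from -0.18 to 0.25, of which 1 was also above 0 in both hybridizations, with 0.12 and 0.39. HS6ST2, a 6-O-sulfotransferase, gave -0.89 and -0.90 with its brighter probe and -0.05 and 0.14 with the other. For both of these enzymes the size of the difference rests on 1 probe. The list median was 0.026.

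Below the receptors, none of the 14 adaptors and proximal effectors was at least 0.5 changed in both hybridizations, and their median was 0.016. FRS2, the docking protein of the FGF receptors, gave 0.24 and -0.35, and GRB2, which links it to SOS1, gave 0.095 and 0.27 with its brightest probe and -0.37 and -0.022 with its dimmest. The RAS, ERK and PI3K core had a median of 0.0091 over 15 genes. MAP2K1, the kinase MEK1 that activates ERK, gave -0.83 and -0.63, while its paralog MAP2K2 gave 0.30 and 1.11. For MAP2K2, hybridization 1 minus hybridization 2 was -0.81, larger in size than 0.628, the limit for 95% of all probes. AKT2, a PI3K effector kinase, gave 1.01 and 0.79, 0.84 and 1.05, and 0.37 and 0.36 with its 3 probes, higher in cl-sh3 with each. NRAS gave -0.52 and -0.43 and HRAS gave 0.36 and 0.52, which had opposite directions on both arrays.

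The feedback inhibitors, which ERK signalling induces, had a median of -0.16 over 10 genes. By the brightest probes, 6 were below and 1 above 0 in both hybridizations, where 27.3% and 29.8% of all probes were. The 6 included SPRED1 and DUSP4, whose sizes in hybridization 2 were below 0.223, the median gap between hybridizations. DUSP6, the phosphatase that inactivates ERK, gave -1.83 and -0.94, a 2.61-fold lower mean. For this probe hybridization 1 minus hybridization 2 was -0.89, larger in size than 0.628, the limit for 95% of all probes. DUSP6 fell short of 2-fold in hybridization 2, but passed in both hybridizations with a background offset of 0, at -1.94 and -1.01. The Sprouty genes SPRY1 and SPRY2 gave -0.66 and -0.43, and -0.78 and -0.29. SPRED2, a Sprouty-related inhibitor, gave -0.32 and -0.32, with a second probe that did not pass the filter at 0.042 and 0.14. SPRED1 gave -0.23 and -0.023 with its brighter probe and -0.62 and -0.26 with the other, and DUSP4 gave -0.25 and -0.12. Not all members of the list were lower, since SPRY4 gave 0.06 and 0.06, SPRY3 gave -0.036 and 0.13 with its brighter probe and 0.13 and -0.21 with the other, DUSP5 gave -0.17 and 0.28 and IL17RD gave -0.37 and 0.082 with its brighter probe and -0.17 and 0.029 with the other.

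The transcriptional targets had a median of -0.11 over 14 genes, again with 6 below and 1 above 0 in both hybridizations. Of all probes, 27.3% were below and 29.8% above 0 in both. IER2, an immediate early gene, gave -0.82 and -0.56 with its brighter probe and -0.67 and -0.44 with the other. ETV5, an ETS factor induced by FGF signalling, gave -0.97 and -0.85 with its dimmer probe and -0.39 and -0.37 with the brighter one, so the probes shared the direction and not the size. With a background offset of 0 the dimmer ETV5 probe reached -1.17 and -1.01. EGR1 gave -0.33 and -0.43, whereas FOS gave 0.09 and -0.05. The cyclin gene CCND1 gave -0.63 and -0.19 with its brightest probe, the one that enters the count, but its other 2 probes were above 0 in both hybridizations, with 0.90 and 0.079, and 0.080 and 0.17. MYC gave -0.083 and 0.12 with its brighter probe and 0.21 and -0.26 with the other, and neither probe kept a direction. These genes answer to many receptors besides those of the FGF family.

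**Figure D5:**
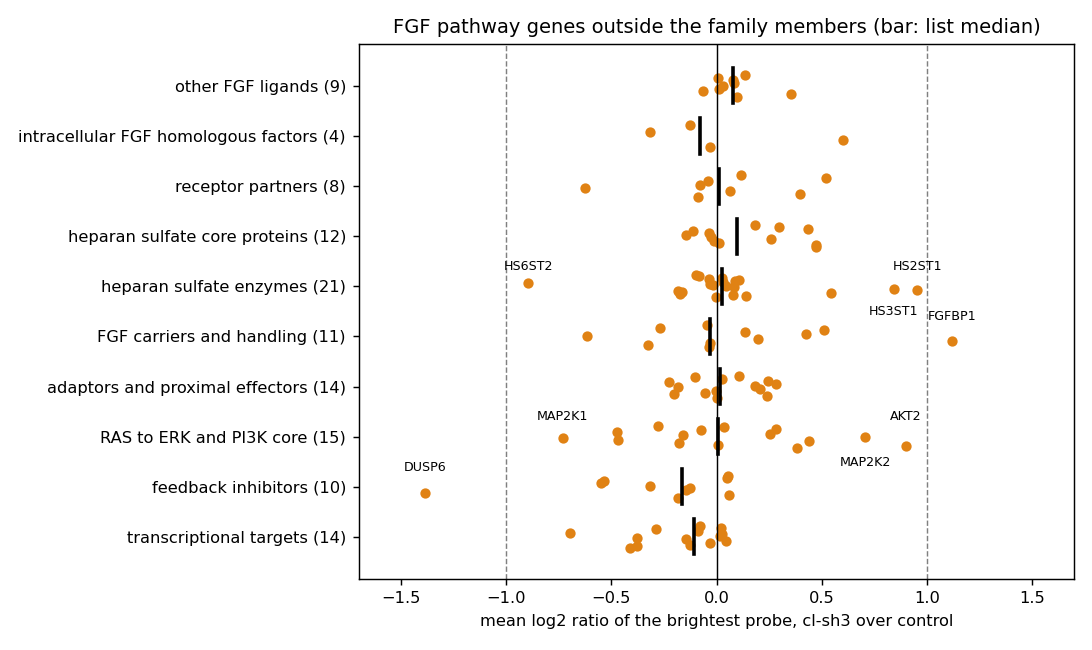
Mean log2 ratio of cl-sh3 over control for the brightest probe of each pathway gene that passed the filter, by list, with the number of genes in brackets and a bar at the list median. List medians run from -0.16 for the feedback inhibitors to 0.098 for the heparan sulfate core proteins, with DUSP6 at the low end and FGFBP1 at the high end.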

How the data were processed

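RNA of the cl-sh3 and control clones was compared in 2 hybridizations with reversed dyes on 1 slide. The authors deposited the intensity of every spot with its local background, as read by Feature Extraction (10.5.1.1 in the file headers, 8.5.1.1 in the submitters' processing notes) and the log10 ratio of Cy5 over Cy3 computed by the software. They also deposited a table of log10 ratios, which equals the software's values to within 0.00245 and 0.00500 and has medians of 0.0108 and 0. The deposited intensities are not normalized, and the headers name build hg18. The plan did not name the pixel statistic, and median pixel intensities were used.

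Background was corrected with normexp (offset 50, which draws the ratios of dim spots toward 0) in limma 3.58.1 under R 4.3.3. Control spots were removed, spots with outlier flags were set to missing, each array was normalized by loess, and spots of a probe were averaged. An RNA counted as well above background where at least 50% of the spots carried the flag of the software, and a probe was kept where 1 RNA was so in both hybridizations. Of 41000 probes, 36060 were kept with a ratio in both. No spot was saturated, and 153 and 144 spots had outlier flags. The number of arrays limits the precision.

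Probes were named by RefSeq accession through the RefSeq table of GRCh38.p14, which held 18023 of 19228 accessions. The RUNX2 record NM_004348 was named through the study's supplementary gene list. Probe sequences were not used here. The script was tested on simulated data. Every family probe is reported. Pathway genes are named where a kept probe was changed 2-fold, or by 0.5 on the log2 scale with the same sign, in both hybridizations, with up to 4 examples a list; where the text names more, or all members of a list, they were chosen after their values were seen. Some genes of the lists are counted but not reported by name here. The brightest probe stands for a gene in list counts and medians. For FGF2, the 3 kept probes of 1 gene nearest in Euclidean distance over both ratios are named. The members and lists were chosen with earlier results of these data known. Alternatives were offset 0, no background correction, median centring, kept outlier flags, other detection filters, the software's ratio, the deposited ratio table, the rule on the mean ratio and each hybridization alone.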

Additional observations from a re-analysis of the deposited data

How the results depend on the processing

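The FGF2 probe stayed at least 2-fold lower under every alternative tried. The count of family probes at least 2-fold higher was 0 throughout, except with hybridization 2 alone, where 1 FGF18 probe passed and the range without either hybridization was 0 to 1. Of the 20 other family probes, 11 kept the sign of their mean ratio in all 8 alternatives and 9 turned in some, all 9 of them in FGF1, FGF5, FGF7, FGF9, FGFR2 or FGFR3 with small or dim ratios. Over the whole array, lower probes rose from 142 to 253 with the software's ratio, 251 with the deposited table and 250 by the mean, and ran from 196 to 506 with 1 hybridization. Higher probes rose from 44 to 77 with median centring, 103 with the software's ratio, 103 with the deposited table and 93 by the mean, and ran from 88 to 219 with 1 hybridization. Lower pathway probes rose from 0 to 2 with offset 0, with the software's ratio and with the deposited table (DUSP6 and ETV5), and to 1 by the mean, with 0 to 1 for 1 hybridization. Higher pathway probes rose from 0 to 1 by the mean (FGFBP1) and to 2 with either hybridization alone. A rule on 1 hybridization or on the mean asks less than a rule on both; for the other settings the cause was not tested. No paired analysis was possible because both hybridizations were taken to be of the same RNA pair.

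With 1 clone a side, no value here has an error between cultures. Among the dim probes, offset 0 and no correction moved the mean ratio of FGF5 between 0.38 and 0.67, of the second IIIb-record FGFR2 probe between 0.34 and 0.66 and of FGFR4 between 0.091 and 0.24, while the brighter FGFR3 probe stayed between 0.25 and 0.28.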
